A study of Sus scrofa with 6 samples.

Results

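Enzymes that buffer ATP in muscle and enzymes that move amino groups between aspartate, glutamate and glutamine were followed in the longissimus dorsi, the long muscle of the back, of male piglets. The genes looked for were AMPD1, AK1, CKM, CKMT2, GATM, GAMT, GOT1, GOT2, MDH1 and GLUL. A probe set, the group of short probes that measures 1 transcript on the array, was taken where the deposited annotation gave it 1 of these symbols, or where the symbol was a placeholder and the title named the enzyme. This found 10 probe sets of 8 genes among 23999 non-control probe sets. AK1 was found through its title alone, which reads adenylate kinase isoenzyme 1-like, and the probe set is called AK1 here. GATM and GAMT, the enzymes of creatine synthesis, had no probe set under this rule, so the creatine genes read here are the kinases that use creatine and not the pathway that makes it.

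Total RNA of each animal was hybridised to its own Affymetrix porcine array. The groups were 3 Yorkshire piglets (replicates 1 to 3), a lean breed of commercial pig production, and 3 Shaziling piglets (replicates 4 to 6), an indigenous Chinese breed, all males of 25 days with no treatment named. The labels describe the animals of a breed as full siblings and place each breed on its own farm, so breed, litter and farm cannot be told apart, and the spread between replicates is that between brothers. In a piece of muscle, a lower signal from fewer cells of one type cannot be told apart from less RNA per cell.

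Muscle keeps its ATP level through coupled reactions. Creatine kinase passes phosphate from phosphocreatine to ADP: CKM does so in the cytosol at the sites of contraction, and CKMT2 sits between the mitochondrial membranes and charges creatine with new phosphate. Adenylate kinase AK1 makes ATP and AMP from a pair of ADP molecules, and AMP deaminase AMPD1 removes that AMP as IMP and ammonia, the entry to the purine nucleotide cycle, in which aspartate is the donor of the amino group that restores AMP. The aspartate aminotransferases GOT1, of the cytosol, and GOT2, of the mitochondrion, exchange amino groups between aspartate and glutamate. Together with the malate dehydrogenases MDH1 and MDH2 and membrane carriers they form the malate-aspartate shuttle, which brings the reducing power of glycolysis into mitochondria. Glutamine synthetase GLUL binds ammonia to glutamate, and muscle is a main source of the glutamine in blood.

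The signals are deposited as log2 MAS5 values, on which a step of 1 is a doubling. Present calls, the MAS5 verdict that a transcript was detected, covered 56.3% to 60.6% of non-control probe sets per array. Correlations of all tested probe sets ran from 0.934 to 0.962 between arrays of a breed and from 0.924 to 0.957 between breeds. Of the defining markers of skeletal muscle fibres, 7 of 9 had a probe set, and all 7 were Present on at least 3 arrays. Of the liver and kidney markers 1 of 4 was Present on at least 3 arrays, APOA1, and albumin ALB on none. The 3 arrays of each breed limit the precision of every difference. A brighter probe set is not a more abundant transcript, so signals are compared between animals and not between genes.

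The genes were selected on the signals of these same 6 arrays, with their breed means already known. Their breed differences are therefore given as descriptions, with the standard error (SE) and 95% interval of a limma model fitted to all 14413 probe sets that were Present on at least 3 of the 6 arrays. Of the members, 9 probe sets of the 8 genes entered that model, each Present on all 6 arrays. The remaining GLUL probe set was Present on no array. None of the 9 passed an adjusted p of 0.05, as 31 of all probe sets (0.215%) did. At an unadjusted p under 0.05 there were 3 of the 9, against 10.4% of all: AMPD1 and the dimmer of the GLUL probe sets were higher in Shaziling, as 4.38% of all were, and GOT1 was lower, as 6.02% were. The breeds did not overlap for AMPD1, higher in Shaziling, as for 7.42% of all probe sets, and for GOT1 and MDH1, lower in Shaziling, as for 8.89%. Since these signals chose the genes, nothing is read from these counts. The median difference of the 9 was -0.22 on the log2 scale, beside -0.04 over all probe sets, with 4 positive and 5 negative.

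**Figure D1:**
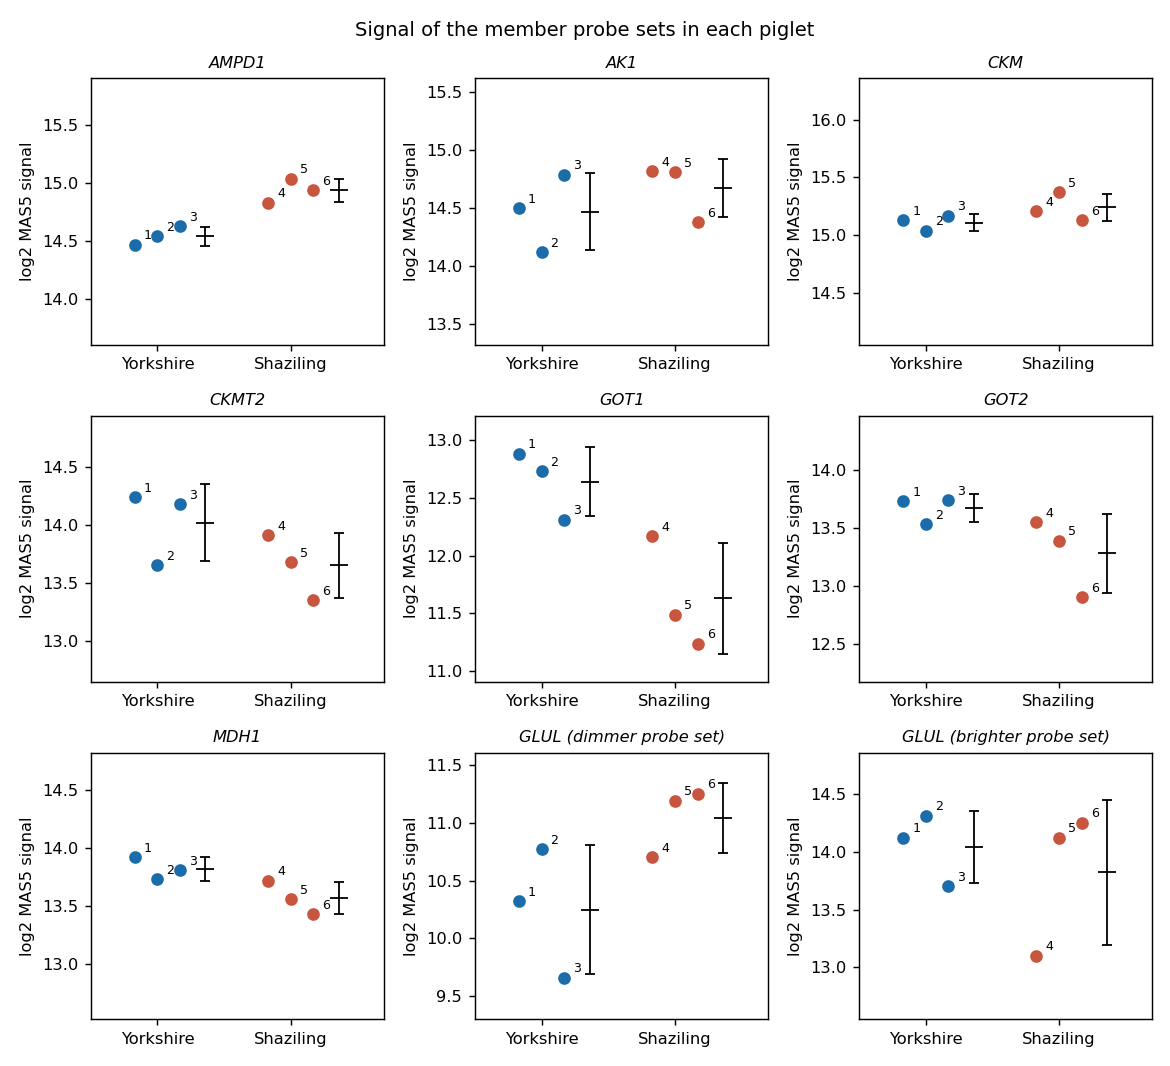
Log2 MAS5 signal of the 9 member probe sets in each piglet, with replicate numbers beside the points, and the mean and SD of each breed (n = 3) as black bars. All panels span the same log2 range on the vertical axis around their own centre. GOT1 spans 1.64 over the 6 arrays and CKM 0.33.

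On the side of ATP buffering, AMPD1 was higher in every Shaziling piglet, CKM and AK1 overlapped between the breeds, and CKMT2 leaned the other way. AMPD1, the deaminase that drains AMP, had log2 signals of 14.47, 14.54 and 14.63 in Yorkshire and of 14.83, 15.04 and 14.94 in Shaziling. The breeds were apart by 0.20 at their nearest animals, Yorkshire replicate 3 and Shaziling replicate 4. The mean went from 14.54 ± 0.08 to 14.94 ± 0.10 (SD, n = 3), a difference of 0.39 (SE 0.11, 95% interval 0.14 to 0.65), or 1.31-fold. When the arrays were rescaled, the difference was 0.28 under quantile normalization and 0.26 under cyclic loess, each without overlap of the breeds.

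CKM, the cytosolic creatine kinase of muscle, had the narrowest spread of the 9 probe sets. Its log2 signals were 15.13, 15.04 and 15.17 in Yorkshire and 15.21, 15.37 and 15.13 in Shaziling. Shaziling replicate 5 was highest and Yorkshire replicate 2 lowest, and the breeds overlapped. The difference was 0.13 (SE 0.11, 95% interval -0.11 to 0.37), 0.01 under quantile normalization and, with the opposite sign, -0.02 under cyclic loess. Without Shaziling replicate 5 it was 0.06. These signals were only 0.28 to 0.48 below the highest signal of the same array, where a probe set has little room to register more transcript, and whether that narrowed the spread was not tested.

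AK1 overlapped between the breeds. Its log2 signals were 14.50, 14.12 and 14.79 in Yorkshire and 14.82, 14.81 and 14.38 in Shaziling. Yorkshire replicate 2 and Shaziling replicate 6 were the lowest, and Yorkshire replicate 3 lay beside the highest Shaziling animals. A measure of RNA quality moved with these values: the actin control at its 5′ end minus that at its 3′ end was -0.25, -1.03 and 0.05 on the log2 scale in Yorkshire and 0.09, 0.07 and -0.50 in Shaziling, lowest in the same animals. A second actin pair did not have this order, with -5.11, -4.82 and -4.97 in Yorkshire and -4.16, -4.23 and -4.98 in Shaziling. Of the GAPDH control pairs, the first was higher in every Shaziling animal (0.36 to 0.48, against 0.15 to 0.24 in Yorkshire) and the second overlapped (-0.21 to 0.04, against -0.12 to -0.04). For the control of the elongation factor EF1A, the 5′ end was brightest in Yorkshire replicate 2 (13.48, against 12.78 to 13.05 in the other animals). Its 3′ end lay from 14.79 to 14.93. The part of RNA quality in the values of AK1 and the other members was not tested. The difference was 0.20 (SE 0.19, 95% interval -0.22 to 0.62). It was 0.03 without Yorkshire replicate 2, 0.36 without Yorkshire replicate 3, 0.10 under quantile normalization and 0.07 under cyclic loess.

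CKMT2, the mitochondrial creatine kinase of striated muscle, had log2 signals of 14.24, 13.65 and 14.18 in Yorkshire and of 13.91, 13.68 and 13.35 in Shaziling. Yorkshire replicates 1 and 3 were the highest and Shaziling replicate 6 the lowest, with Yorkshire replicate 2 among the Shaziling animals. The difference was -0.38 (SE 0.20, 95% interval -0.82 to 0.07). It was -0.56 without Yorkshire replicate 2 and -0.23 without Shaziling replicate 6. The same animal, Yorkshire replicate 2, had the lowest signal of AK1 and CKM. It also had the lowest mean of the skeletal muscle fibre markers, at a log2 deviation of -0.34 from the mean of the 6 arrays, against -0.08 to 0.21 in the other animals, and the lowest mean of the adipocyte, endothelial, macrophage and liver lists. The part of that animal's sample composition in these values was not tested.

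Of the aspartate enzymes, the 3 probe sets of GOT1, GOT2 and MDH1 all had lower mean signals in Shaziling, and GOT1 differed by the most among the 9. GOT1 had log2 signals of 12.88, 12.73 and 12.31 in Yorkshire and of 12.17, 11.49 and 11.24 in Shaziling. All Yorkshire animals were above all Shaziling animals, but Yorkshire replicate 3 and Shaziling replicate 4 were apart by only 0.14. The mean went from 12.64 ± 0.30 to 11.63 ± 0.48 (SD, n = 3), a difference of -1.01 (SE 0.26, 95% interval -1.59 to -0.43), which is 2.01-fold lower in Shaziling. Under the 2 rescalings it was -1.03 and -1.05. It lay between -1.27, without Shaziling replicate 4, and -0.81, without Shaziling replicate 6, when 1 array at a time was left out.

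GOT2, the mitochondrial form of the aminotransferase, had log2 signals of 13.73, 13.53 and 13.74 in Yorkshire and of 13.55, 13.39 and 12.90 in Shaziling. Shaziling replicate 4 lay just above Yorkshire replicate 2, and Shaziling replicate 6 stood lowest. The difference was -0.38 (SE 0.18, 95% interval -0.79 to 0.02), and it was -0.19 without Shaziling replicate 6. Under quantile normalization and cyclic loess the breeds did not overlap for GOT2, with a difference of -0.47 under each.

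MDH1, the cytosolic malate dehydrogenase that works beside GOT1, had log2 signals of 13.92, 13.73 and 13.81 in Yorkshire and of 13.72, 13.56 and 13.43 in Shaziling. The breeds did not overlap, but only by 0.01, between Yorkshire replicate 2 and Shaziling replicate 4. The difference was -0.25 (SE 0.13, 95% interval -0.56 to 0.05).

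The same animals stood at the ends for CKMT2, GOT1, GOT2 and MDH1. Shaziling replicate 6 had the lowest signal of all 4, and Yorkshire replicate 1 the highest of CKMT2, GOT1 and MDH1 and within 0.01 of the highest of GOT2. Between these ends the orders differed, since Yorkshire replicate 2 was second highest for GOT1 and second lowest for CKMT2. The mean log2 deviation of these 4 probe sets from the mean of the 6 arrays was 0.41, 0.12 and 0.23 in Yorkshire replicates 1, 2 and 3. It was 0.05, -0.25 and -0.55 in Shaziling replicates 4, 5 and 6. For AMPD1, AK1 and CKM as a group the deviations were -0.13, -0.26 and 0.03 in Yorkshire and 0.13, 0.24 and -0.01 in Shaziling. Each group holds only probe sets with the same direction of breed difference, since CKMT2, an ATP-buffering gene, was placed with the aspartate enzymes. That the breed means of the groups are opposite was therefore fixed in advance, and nothing is read from it.

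The mitochondrial enzyme genes CS, SDHA and SDHB, averaged over their brightest probe sets, had the same animals at the ends. They come from a reference list of which 3 of 7 genes had a probe set under the symbols sought, all Present on at least 3 arrays. CS is citrate synthase, and SDHA and SDHB are subunits of succinate dehydrogenase. A probe set under ATP5B, an older symbol of the list gene ATP5F1B, was not counted. Its log2 signals overlapped, with 14.75, 14.56 and 14.76 in Yorkshire and 14.59, 14.54 and 14.19 in Shaziling. For CS, SDHA and SDHB, the summed linear signal of the brightest probe sets was 39783 to 45087 in Yorkshire and 27883 to 36452 in Shaziling, without overlap. Their mean log2 deviations were 0.30, 0.21 and 0.15 in Yorkshire and 0.03, -0.23 and -0.45 in Shaziling. Shaziling replicate 6 was thus lowest and Yorkshire replicate 1 highest for the mean of these 3 genes too. Dimmer probe sets of CS and SDHA overlapped between the breeds, though Shaziling replicate 6 was lowest there as well. The upper end differed in these: Yorkshire replicate 1 was the lowest Yorkshire animal, and Yorkshire replicate 3 and Shaziling replicate 4 had the highest signals. The part of mitochondrial content in the values of the aspartate enzymes, of which GOT1 and MDH1 are cytosolic, was not tested.

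**Figure D2:**
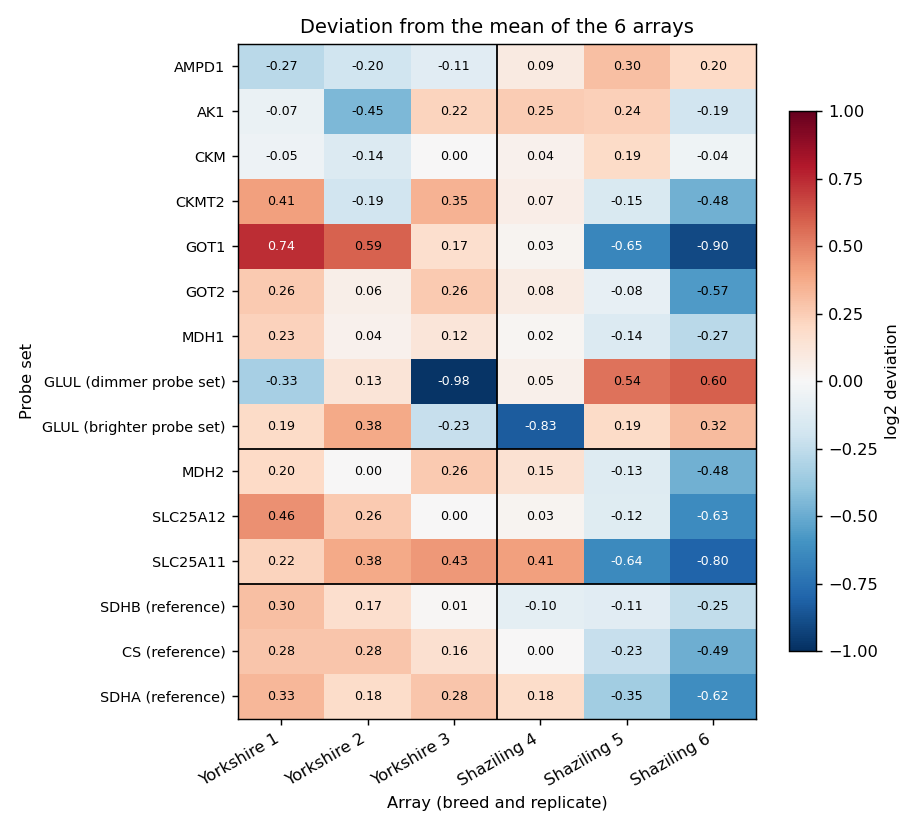
Log2 deviation of each probe set from its own mean over the 6 arrays (colour and number), with arrays in columns and probe sets in rows: the members above, the malate-aspartate shuttle genes in the middle and the mitochondrial reference genes below. Shaziling replicate 6 is the lowest array for CKMT2, GOT1, GOT2 and MDH1, with deviations from -0.27 to -0.90, and for all shuttle and reference genes shown.

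The other genes of the malate-aspartate shuttle were read as a list that does not hold the members, but that was chosen with earlier results of these data known. Of 4 genes, 3 had a probe set, all were tested and all had negative differences, as 7759 of all 14413 probe sets did. The median was -0.48. None passed in either direction (0 higher and 0 lower in limma over all probe sets), and 1 had an unadjusted p under 0.05, as 10.4% of all probe sets did. SLC25A12, the mitochondrial carrier that exports aspartate, had -0.48 (SE 0.21, limma adjusted p = 0.475). SLC25A11, the oxoglutarate and malate carrier, had -0.69 (SE 0.31, limma adjusted p = 0.483). Its log2 signals were 10.43, 10.59 and 10.64 in Yorkshire and 10.62, 9.57 and 9.41 in Shaziling, so that Shaziling replicate 4 lay among the Yorkshire animals and the other Shaziling animals about 1 below them. MDH2, the mitochondrial malate dehydrogenase, had -0.30 (SE 0.17, limma adjusted p = 0.582), with its lowest signal, 13.43, again in Shaziling replicate 6.

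GLUL was read by 2 probe sets that did not give the same account of the breeds. The brighter had log2 signals of 14.12, 14.31 and 13.70 in Yorkshire and of 13.10, 14.12 and 14.25 in Shaziling. Shaziling replicate 4 was lowest by far and the other Shaziling animals lay within the Yorkshire range. Its difference was -0.22 (SE 0.29, 95% interval -0.87 to 0.43), and without Shaziling replicate 4 it turned to 0.14, without Shaziling replicate 6 to -0.43.

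The dimmer GLUL probe set had log2 signals of 10.32, 10.77 and 9.66 in Yorkshire and of 10.70, 11.19 and 11.25 in Shaziling. Here Yorkshire replicate 3 was lowest, and Shaziling replicate 4 lay just under the highest Yorkshire animal. The difference was 0.79 (SE 0.29, 95% interval 0.13 to 1.46), or 1.73-fold higher in Shaziling. It was 0.50 without Yorkshire replicate 3 and 1.06 without Yorkshire replicate 2. The mean of both probe sets gave 0.29.

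Within each array, the brighter GLUL probe set exceeded the dimmer by 3.80, 3.54 and 4.04 on the log2 scale in Yorkshire and by 2.40, 2.94 and 3.0 in Shaziling. This gap was larger in every Yorkshire piglet, at 3.79 ± 0.25 against 2.78 ± 0.33 (SD, n = 3). It shows that the probe sets moved unequally and not which of them follows GLUL mRNA. The gap differed between the breeds by -1.01, by -1.07 under quantile normalization and by -1.12 under cyclic loess. When 1 array at a time was left out it lay from -1.14 to -0.83. Both were assigned by the file to the same interval of chromosome 9, with the same alignment identity of 89.79%.

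**Figure D3:**
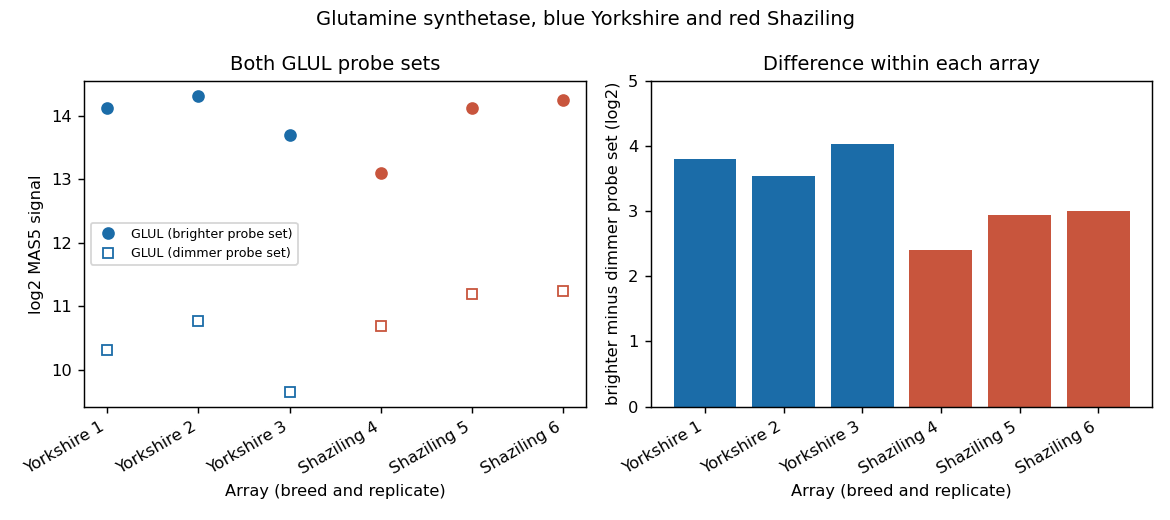
Left, log2 MAS5 signals of the brighter (filled circles) and the dimmer (open squares) GLUL probe set on each array, with Yorkshire in blue and Shaziling in red. Right, the log2 difference of both probe sets within each array as bars from 0, which lies between 3.54 and 4.04 in Yorkshire and between 2.40 and 3.0 in Shaziling.

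Further enzymes of glutamate, alanine and aspartate metabolism were spread to both sides. Of 11 genes, 9 had a probe set and 7 were tested with 8 probe sets, of which 4 had positive and 4 negative differences (median 0.05). None passed in limma, 0 higher and 0 lower, and 2 had an unadjusted p under 0.05. ASL, the argininosuccinate lyase that releases arginine and fumarate, had -1.17 (SE 0.41, limma adjusted p = 0.355). The ASL probe set was dim and Present on only 4 arrays, with 7.01, 6.85 and 7.01 in Yorkshire and 6.46, 4.92 and 5.97 in Shaziling. GLUD1, the glutamate dehydrogenase of mitochondria, had -0.51 (SE 0.19, limma adjusted p = 0.397), with 12.60, 12.18 and 12.79 in Yorkshire and 12.18, 11.87 and 12.00 in Shaziling. Both were lower in every Shaziling animal, as was OAT, ornithine aminotransferase, which makes 3 of 8 probe sets beside 8.89% of all; for GLUD1 Yorkshire replicate 2 and Shaziling replicate 4 were equal at 2 decimals. ASS1, the argininosuccinate synthetase that uses aspartate, had 0.73 (SE 0.35, limma adjusted p = 0.527) and was Present on only 3 arrays. ASNS, the asparagine synthetase, had 1.0 (SE 0.56, limma adjusted p = 0.579), with one Yorkshire animal, replicate 2, at 8.31 and the other animals from 10.33 to 11.50.

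The purine nucleotide cycle around AMPD1 held no probe set that passed. Of 16 genes of this cycle and of AMP breakdown, 8 had a probe set and 7 were tested with 9 probe sets, of which 7 had positive and 2 negative differences (median 0.15). None passed in limma (0 higher, 0 lower), and 0 had an unadjusted p under 0.05. NT5C2, a cytosolic nucleotidase that acts on IMP, had 0.31 (SE 0.25, limma adjusted p = 0.703). HPRT1, which returns hypoxanthine to IMP, had 0.25 (SE 0.20, limma adjusted p = 0.708). ADK, the adenosine kinase, had -0.34 (SE 0.37) and -0.03 (SE 0.22) for its probe sets. ADSL, the lyase that closes the cycle, had 0.21 (SE 0.30) and 0.03 (SE 0.20). ADSSL1, the muscle form of the synthetase that spends aspartate, had 13.27, 12.28 and 13.79 in Yorkshire and 13.61, 13.14 and 13.24 in Shaziling, a difference of 0.22 (SE 0.33), with Yorkshire replicate 2 again the lowest.

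Of 9 other genes, creatine and adenylate kinases and the creatine transporter, 3 had a probe set and 2 were tested, AK5 (0.48, SE 0.56) and AK3 (0.02, SE 0.59), both dim; none passed in limma, 0 had an unadjusted p under 0.05, and the median was 0.25. The ubiquitous mitochondrial creatine kinase CKMT1A was Present on no array. Over all 4 lists, 0 of 22 tested probe sets of 19 genes passed in limma, and 3 had an unadjusted p under 0.05, beside 0.215% and 10.4% of all probe sets.

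**Figure D4:**
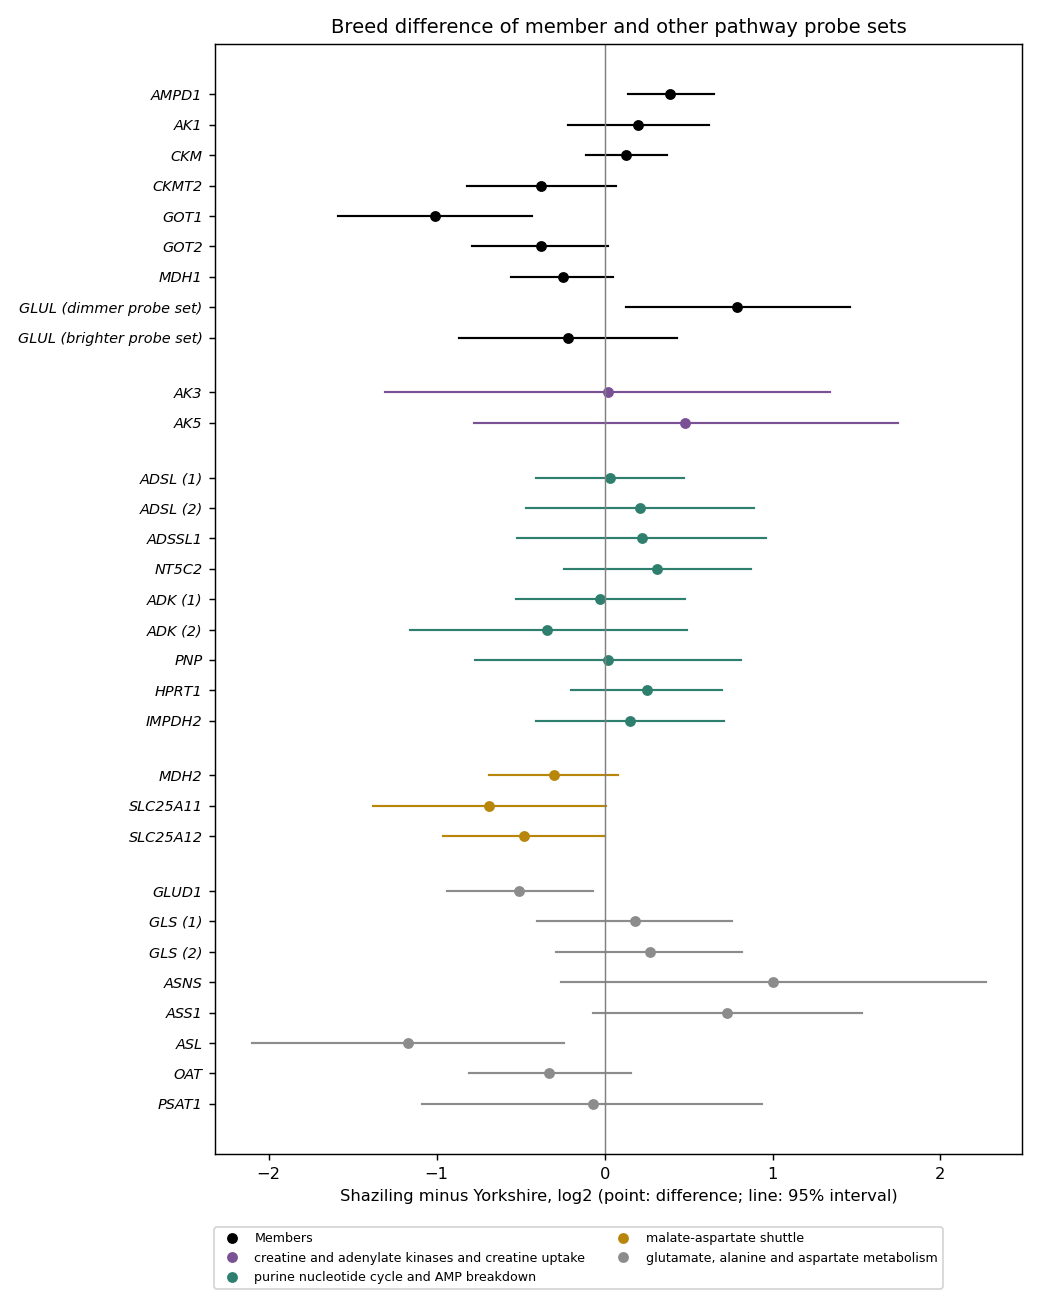
Difference between the breeds, Shaziling minus Yorkshire on the log2 scale (points), with its 95% interval from limma (lines), for the 9 member probe sets and the 22 probe sets of the 4 other lists; numbers in brackets tell apart probe sets of a gene. Among the members, the intervals of AMPD1 (0.14 to 0.65), GOT1 (-1.59 to -0.43) and the dimmer GLUL probe set (0.13 to 1.46) leave out 0 before any adjustment for the number of probe sets. The member genes were selected on these same signals, so nothing is read from which of their intervals leave out 0.

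Markers of other cell types also differed in level between animals. For satellite cells, 2 of 2 markers had a probe set and 1, MYF5, was Present on at least 3 arrays. The log2 signals of MYF5 overlapped, with 7.35, 6.89 and 5.89 in Yorkshire and 7.21, 8.21 and 8.03 in Shaziling. The summed linear signal of both markers did not (173 to 262 in Yorkshire and 271 to 379 in Shaziling), but it includes PAX7, which was Present on at most 2 arrays. The summed signals of the adipocyte, endothelial, fibroblast and macrophage lists overlapped. The mean log2 deviation of the 3 macrophage markers Present on at least 3 arrays did not overlap. It was -0.13, -0.78 and -0.14 in Yorkshire and 0.12, 0.18 and 0.75 in Shaziling. Of these, LYZ was higher in every Shaziling animal, while CD163 and CSF1R overlapped. Among endothelial markers, the brightest probe sets of VWF and TEK were higher in every Shaziling animal, as 7.42% of all probe sets were. Those of PECAM1, CDH5 and KDR overlapped. The part of these cell types in the values of AMPD1, GOT1 and MDH1 was not tested.

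For the members with the widest range over the 6 arrays, the most similar genes were sought by Pearson's r of the log2 signal over the 6 arrays, as a description in which breed and the brothers' shared origin enter every value. GOT1 was most like VDAC1, the main channel of the outer mitochondrial membrane (r = 0.991), RPA2, a subunit of a protein that coats single-stranded DNA (r = 0.989), and PANK1, a kinase of coenzyme A synthesis (r = 0.987). The signals of VDAC1 were 12.78, 12.78 and 12.51 in Yorkshire and 12.36, 12.11 and 11.88 in Shaziling. The brighter GLUL probe set was most like RAB35 (r = 0.993), an EEA1 probe set (r = 0.990) and KLF9, a zinc finger transcription factor (r = 0.989). KLF9 had 13.20, 13.34 and 12.78 in Yorkshire and 11.91, 13.33 and 13.35 in Shaziling, with replicate 4 far below the rest as for GLUL. CKMT2 was most like MED24 (r = 0.994), STRADB (r = 0.994) and CDH5, the cadherin of endothelial cells (r = 0.981). Over these 6 arrays r was above 0.9 for 116 of 4633 other genes with GOT1, for 83 with the brighter GLUL probe set and for 85 with CKMT2. How many reached values as high as those named is not given.

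The deposited annotation places the AMPD1 probe set on chromosome 4 from 110248790 to 110252357, with a second alignment on chromosome X from 59336831 to 59340410. AK1 was placed on chromosome 1 from 282843220 to 282852803 and CKMT2 on chromosome 2 from 79105682 to 79148274. GOT1 lay on chromosome 14 from 115310599 to 115395995 and GOT2 on chromosome 6 from 19000136 to 19153521. MDH1 lay on chromosome 3 from 72255305 to 72273186 and the tested GLUL probe sets on chromosome 9 from 116108315 to 116119310. CKM had no position. The assembly is not given in a readable form, and exons or UTRs are not annotated. The identity of the alignment was 96.66% to 98.98% for AMPD1, AK1 and CKMT2, 91.27% for GOT1, 85.44% for GOT2 and only 52.89% for MDH1, so that the position of MDH1 is the least certain.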

How the data were processed

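Each animal has 1 column of log2 signals deposited by the authors, which the submitters' processing notes attribute to MAS5 with no version, beside a Present, Marginal or Absent call. Signals were identical in both deposited tables, with 0 values differing by more than 0.0001. Symbols were brought up to date by Entrez ID in RefSeq's Sscrofa11.1 genes (no coordinates taken), which left 9077 of 23999 non-control probe sets with 1 name. The 124 control probe sets were left out. Breeds were compared as Shaziling minus Yorkshire with limma 3.58.1 (lmFit and eBayes with an intensity trend) in R 4.3.3, on 14413 probe sets Present on at least 3 arrays, with Benjamini-Hochberg adjustment and a threshold of 0.05. Adjusted p-values come from this model, which was tested on simulated data. Members and lists were chosen with earlier results of these data known. In each list up to 4 genes of smallest p are named, and up to 3 similar genes for the 3 members of widest range; OAT, MYF5, ADSSL1, CKMT1A and markers are named beyond this, with their values seen. The 13 alternatives changed the filter, scaling, offset, variance model or array weights, or left out 1 array. No sequences are printed. The result of 1 marker list is not reported here.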

Additional observations from a re-analysis of the deposited data

How the results depend on the processing

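No paired analysis was possible because the breeds share no replicate numbers. The 31 probe sets past the threshold became 13 with no filter on dim probe sets, 19 with Present calls on all 6 arrays, 8 without the intensity trend and 364 with array weights, and from 0 to 27 when 1 array was left out. Leaving out Yorkshire replicate 1 or Shaziling replicate 6 gave 0 in limma (1020 and 1096 at an unadjusted p under 0.05), and the count was 5 without Shaziling replicate 5 and 11 without Yorkshire replicate 2. AMPD1 and GOT1 were among the 364 under array weights, from which nothing is read, since these signals chose the genes. Under the other 12 alternatives no member passed. No probe set of the other pathway genes passed under any of the 13. Of the recomputed member differences, 113 moved by less than 1 SD between replicates. The other 5 were AMPD1 and CKM under both rescalings and GLUL as the mean of its probe sets. The cause was not tested. The bright signals of CKM, AMPD1 and AK1 were at most 1.21 below the highest of their array. Those of the brighter GLUL probe set and of CKMT2 came as near as 1.02 and 1.22. Such closeness may limit what these arrays can show, which was not tested.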

Other observations

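Some probe sets carry no gene symbol or title but are described in the file's target text as similar to an enzyme of these pathways. They were picked after their values were seen. The one described as moderately similar to mouse guanidinoacetate methyltransferase, the enzyme that GAMT encodes, was Present on all 6 arrays. Its log2 signals were 9.77, 9.70 and 11.20 in Yorkshire and 11.43, 9.88 and 9.75 in Shaziling, so that Yorkshire replicate 3 and Shaziling replicate 4 stood more than 1 above the other animals, across breed (difference 0.13, SE 0.51, limma adjusted p = 0.953). All 4 probe sets of TTN, the giant spring protein titin from the muscle marker list, had their lowest signals in the same animals. The widest gap was 6.39 in Yorkshire replicate 3 and 6.73 in Shaziling replicate 4, against 8.11 to 9.72 in the others. These are also the animals in which a GLUL probe set was lowest, the dimmer one in Yorkshire replicate 3 and the brighter one in Shaziling replicate 4. The probe set similar to the brain creatine kinase CKB had -0.38 (SE 0.43, limma adjusted p = 0.796) and that similar to AMPD2 had 0.25 (SE 0.32, limma adjusted p = 0.823).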
